A study of Sus scrofa with 10 samples.

Results

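Transcripts of the circadian clock genes were followed in pig liver (Sus scrofa) through liver failure after hepatectomy and its treatment with a bioartificial liver, in which blood is led out of the body and past liver cells. The genes were the activators ARNTL (also called BMAL1), CLOCK and NPAS2, the repressors PER1, PER2, PER3, CRY1 and CRY2, and the output factors DBP and TEF, chosen by name. The deposited table held 1 row for each of 9 of these 10 symbols among its 31905 genes. PER3 had no row under that symbol and was not analysed here. All 10 libraries were of wild-type pig liver. Livers on day 8 with a device that held human induced hepatocytes (hiHep-BAL-Day8) gave 2 libraries, and the same device on day 4 (hiHep-BAL-Day4) gave 1. Failing livers with a device without cells on day 3 (Empty-BAL) gave 2 libraries, failing livers without a device on day 2 (No-BAL) gave 2, and normal livers on day 0 (Control) gave 3. Such induced hepatocytes are obtained by converting human cells of another type. The study compared failing with normal liver, then treated with failing liver, and used the empty device as a control for the passage of blood. Breed, age and the animal behind each library were not given in the sources used here, nor was the hour of sampling. Day and treatment changed together in every comparison except that of hiHep-BAL-Day8 with hiHep-BAL-Day4, so elsewhere they cannot be told apart.

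The circadian clock is a feedback loop of transcription present in nearly every cell. ARNTL pairs with CLOCK, or with its relative NPAS2, and binds E-box elements of the PER and CRY genes, whose proteins return to the nucleus and block that pair. The same pair drives DBP and TEF, factors that act on D-box elements of output genes, many of them for metabolism in the liver. A further loop sets ARNTL itself, which the nuclear receptors NR1D1 and NR1D2 repress and the ROR receptors activate. In a running clock ARNTL therefore peaks at another time of day than DBP and the PER genes. PER1 is also induced by glucocorticoids. Without the hour of sampling, a difference in phase and a difference in the daily mean of a clock gene cannot be told apart.

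Levels are in FPKM, which counts fragments per length of gene and per library size, so they can be set against each other between genes. Libraries of a group were unequally close. The mean SD per gene of log2(FPKM + 1) was 0.083 in hiHep-BAL-Day8, 0.449 in Empty-BAL, 0.32 in No-BAL and 0.118 in Control. Whether the libraries within a group are separate animals is not stated in the labels. The p-values therefore reflect only differences among these libraries, and part of those may be technical. Each test was therefore repeated with the hiHep-BAL-Day8 libraries averaged to 1 sample and the Control libraries averaged to 1 sample, called the averaged fit. In it only Empty-BAL and No-BAL kept more than 1 sample, so the spread within groups came from these less close libraries alone. A call lost there therefore also reflects their spread, in comparisons without them too. Among 7 hepatocyte markers none was listed at 0 in any group. Their summed level was 21349 and 21429 FPKM in hiHep-BAL-Day8, 23535 in hiHep-BAL-Day4, 3598 and 6776 in Empty-BAL, 14550 and 15249 in No-BAL, and 81290 to 83907 in Control. The markers did not move together. In hiHep-BAL-Day8 HNF4A (117.8 and 118.7 FPKM) and CPS1 (564 and 559.8) lay above Control (104.5 to 112.3 and 284 to 311). ALB, APOA1, TTR, TF and SERPINA1 lay below Control there. The part of these markers in the results on clock genes was not tested. In these bulk libraries fewer cells of a type and less RNA per cell cannot be told apart.

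Failing livers had very little PER2, DBP and TEF transcript, and less CRY2 and more NPAS2 than normal livers. Livers on day 8 of the cell-filled device had the highest ARNTL and PER1 of all libraries, DBP and TEF between those of failing and normal livers, and PER2 that was still a small part of its normal level. A gene was called where limma gave an adjusted p (Benjamini-Hochberg, over 12180 genes) under 0.05. In hiHep-BAL-Day8 against Empty-BAL 5 of 9 clock genes were called, all higher, where 22.6% of all genes were called higher, 17.6% lower and 40.2% in either direction. In hiHep-BAL-Day8 against No-BAL 6 of 9 were called, all higher (22.5% of all genes higher, 24.8% lower, 47.3% either way). In hiHep-BAL-Day8 against Control 3 were higher and 3 lower (15.1% and 17.1% of all genes, 32.2% either way). In Empty-BAL against No-BAL 1 was higher and 1 lower (12.6% and 21.4%, 34% either way). In Empty-BAL against Control 1 was higher and 6 were lower (24.4% and 29.3%, 53.7% either way). In No-BAL against Control 1 was higher and 5 were lower (25.2% and 24.2%, 49.4% either way). Upper-quartile scaling, which shifted the median of all genes by 0.183 to 0.231 in 4 comparisons, moved the share of higher among all calls. It was 60.1% for hiHep-BAL-Day8 against No-BAL, 62% for hiHep-BAL-Day8 against Control, 63.4% for Empty-BAL against No-BAL and 57% for Empty-BAL against Control, where the unscaled shares were 47.5%, 46.9%, 37% and 45.4%. Median-ratio scaling gave 48.1% for Empty-BAL against No-BAL. These comparisons share libraries and are not independent of each other.

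With the averaged fit 6 of these 32 calls remained. They were the falls of PER2, DBP and TEF in No-BAL and in Empty-BAL against Control, with adjusted p = 0.0246 to 0.0398. In that fit 2.39% of all genes were called lower in No-BAL (3.39% either way) and 4.32% in Empty-BAL (5.66% either way). None of the calls in hiHep-BAL-Day8 remained (adjusted p = 0.0506 to 0.713). At an unadjusted p under 0.05 that fit gave 4 of 9 genes against Empty-BAL, 4 against No-BAL and 3 against Control, where 2489, 2984 and 1463 of all 12180 genes passed likewise. At the adjusted p it called 0 clock genes in each, where 0.271%, 2.44% and 0.14% of all genes were called.

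**Figure D1:**
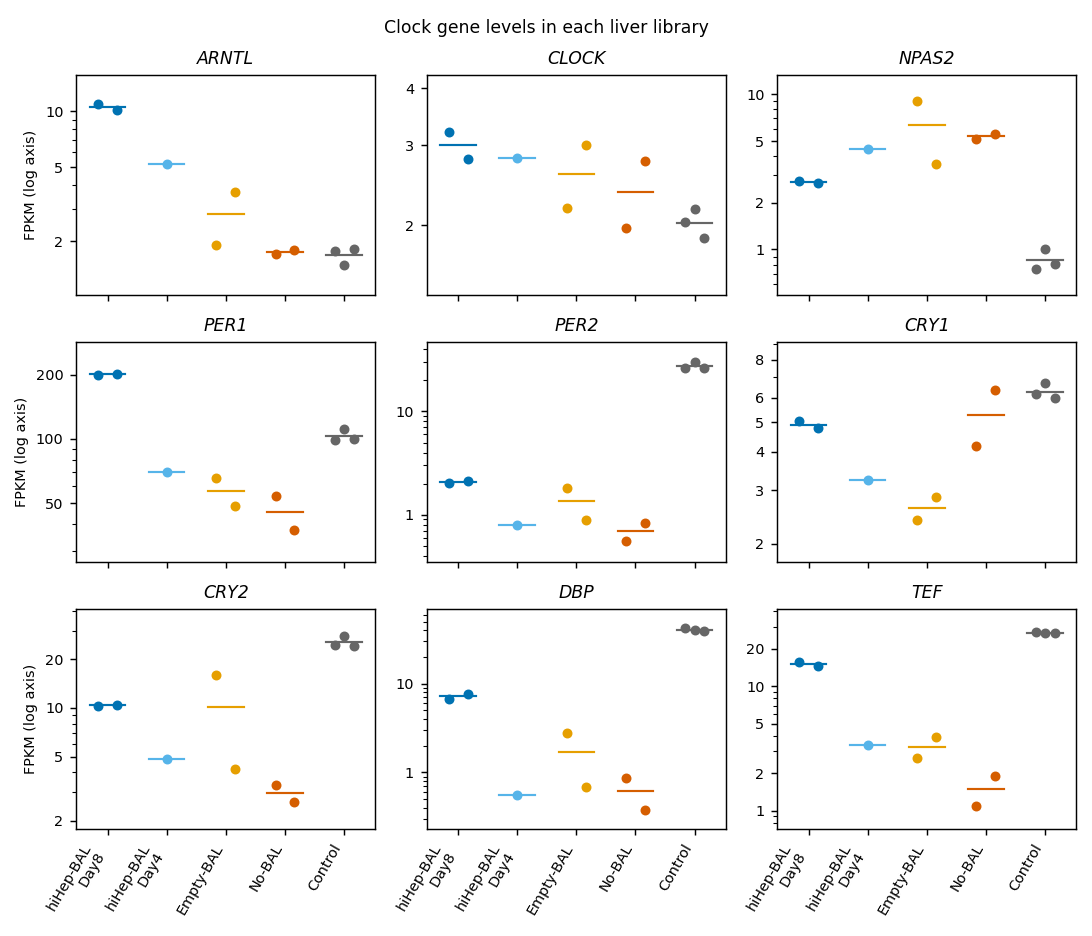
FPKM (log axis) of the 9 clock genes in each of the 10 libraries, by group; points are libraries and bars are group means. PER2, DBP and TEF were highest in the 3 Control libraries, and ARNTL and PER1 in the 2 hiHep-BAL-Day8 libraries.

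ARNTL encodes BMAL1, the shared partner of both activator pairs (chromosome 2, 45895637 to 46025174, Sscrofa11.1). It was at 10.95 and 10.1 FPKM in hiHep-BAL-Day8, 5.19 in hiHep-BAL-Day4, 1.90 and 3.68 in Empty-BAL, 1.71 and 1.81 in No-BAL, and 1.78, 1.48 and 1.82 in Control. Both day 8 libraries lay above all others, the day 4 library came next, and No-BAL and Control overlapped. The difference of hiHep-BAL-Day8 from Control was a log2 change of 2.10 ± 0.20 (SE), with adjusted p = 0.000286 in limma and 0.185 in the averaged fit. Against No-BAL the log2 change was 2.06 ± 0.22 (adjusted p = 0.000333, and 0.0712 in the averaged fit), and against Empty-BAL 1.64 ± 0.22 (adjusted p = 0.00125, and 0.133). No-BAL and Control differed by a log2 change of 0.03 ± 0.20 (adjusted p = 0.9), which was -0.02 without Control replicate 2. Empty-BAL was not called against Control (0.45 ± 0.20, adjusted p = 0.0947) or No-BAL (0.42 ± 0.22, adjusted p = 0.176). With upper-quartile scaling the difference from Control was 0.62 (adjusted p = 0.0445). Without Empty-BAL replicate 1, which left its other library alone and assumed to vary like the other groups, these were 0.80 and 0.76 (adjusted p = 0.0029 and 0.00983).

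CLOCK, the usual partner of BMAL1 (chromosome 8, 54793323 to 54910192), varied little. It was at 3.21 and 2.80 FPKM in hiHep-BAL-Day8, 2.82 in hiHep-BAL-Day4, 2.18 and 2.999 in Empty-BAL, 1.97 and 2.76 in No-BAL, and 2.03, 2.17 and 1.88 in Control. Day 8 lay above Control and overlapped Empty-BAL, while No-BAL overlapped both Empty-BAL and Control. CLOCK was called in none of the 6 comparisons (adjusted p = 0.0979 to 0.715). The difference of hiHep-BAL-Day8 from Control (0.40 ± 0.16) passed with upper-quartile scaling (adjusted p = 0.0452) and when only these 5 libraries were fitted (0.00833). The gene overlaps the end of TMEM165 by 3030 bases in RefSeq, so its reads may not be its alone. NPAS2, which can replace CLOCK (chromosome 3, 53298805 to 53490375), stood at 2.78 and 2.70 FPKM in hiHep-BAL-Day8, 4.43 in hiHep-BAL-Day4, 9.11 and 3.56 in Empty-BAL, 5.17 and 5.59 in No-BAL, and 0.753, 1.01 and 0.811 in Control. All 7 libraries from operated pigs lay above all 3 Control libraries, and day 8 was the lowest of the 7. NPAS2 rose in Empty-BAL (1.87 ± 0.29, adjusted p = 0.00134) and in No-BAL (1.78 ± 0.29, adjusted p = 0.00186) against Control, with adjusted p = 0.11 and 0.147 in the averaged fit. The rise in hiHep-BAL-Day8 against Control (1.01 ± 0.29, adjusted p = 0.0338) was lost in the averaged fit (0.703) and without any 1 of the 5 libraries (0.0731 to 0.159), and it was 1.58 with a pseudocount of 0.1.

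The Empty-BAL libraries decided how NPAS2 compared among operated livers. In hiHep-BAL-Day8 against Empty-BAL the log2 change was -0.86 ± 0.32 (adjusted p = 0.0664), and -1.44 without Empty-BAL replicate 2 (adjusted p = 0.00026). Against No-BAL it was -0.77 ± 0.32 (adjusted p = 0.084), and passed when only these 4 libraries were fitted (0.0161). In Empty-BAL against No-BAL it was 0.09 ± 0.32 (adjusted p = 0.847), with -0.48 without Empty-BAL replicate 1 (adjusted p = 0.0419) and 0.67 without replicate 2 (adjusted p = 0.00723). Of the activators, NPAS2 exceeded CLOCK in the failing livers. The FPKM ratio of NPAS2 to CLOCK, chosen after the values were seen, was 0.864 and 0.963 in hiHep-BAL-Day8, 1.57 in hiHep-BAL-Day4, 4.18 and 1.19 in Empty-BAL, 2.62 and 2.02 in No-BAL, and 0.370 to 0.465 in Control.

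PER1 and PER2, repressors that act with the CRY proteins, parted on day 8. PER1 (chromosome 12, 53361863 to 53376723) was at 199.7 and 202 FPKM in hiHep-BAL-Day8, 70.3 in hiHep-BAL-Day4, 65.9 and 48.6 in Empty-BAL, 53.8 and 37.6 in No-BAL, and 98.9, 112 and 99.98 in Control. The groups did not overlap except Empty-BAL and No-BAL, with day 8 above Control and the other operated livers below it. PER1 was higher in hiHep-BAL-Day8 than in No-BAL (log2 change 2.13 ± 0.24, adjusted p = 0.000394) and Empty-BAL (1.81 ± 0.24, adjusted p = 0.00116), with adjusted p = 0.0989 and 0.163 in the averaged fit. It fell in No-BAL against Control (-1.18 ± 0.22, adjusted p = 0.00323, and 0.265 in the averaged fit) and in Empty-BAL (-0.86 ± 0.22, adjusted p = 0.0127, and 0.365). The rise in hiHep-BAL-Day8 against Control (0.95 ± 0.22, adjusted p = 0.0137) was lost in the averaged fit (0.713). It was also lost without Control replicate 1 (0.0557) or 3 (0.0544) and without hiHep-BAL-Day8 replicate 1 (0.0953) or 2 (0.101). Empty-BAL and No-BAL differed by 0.33 ± 0.24 (adjusted p = 0.318).

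PER2 (chromosome 15, 137793419 to 137837854) was at 2.04 and 2.11 FPKM in hiHep-BAL-Day8, 0.802 in hiHep-BAL-Day4, 1.83 and 0.897 in Empty-BAL, 0.556 and 0.827 in No-BAL, and 26.6, 29.9 and 26.3 in Control. Every operated liver, day 8 included, lay far below every Control library. On the log2 scale PER2 fell in No-BAL (-4.08 ± 0.19, adjusted p = 6.87e-06, and 0.0254 in the averaged fit) and in Empty-BAL (-3.62 ± 0.19, adjusted p = 1.05e-05, and 0.0246). In hiHep-BAL-Day8 it fell (-3.22 ± 0.19, adjusted p = 3.82e-05), with adjusted p = 0.0928 in the averaged fit. Since the pseudocount understates such falls, the ratio of mean FPKM to Control is given too, which was 0.0751 in hiHep-BAL-Day8, 0.0494 in Empty-BAL and 0.0250 in No-BAL. PER2 was higher in hiHep-BAL-Day8 than in No-BAL (0.87 ± 0.21, adjusted p = 0.0111, and 1.48 with a pseudocount of 0.1). That call was lost in the averaged fit (0.236), without No-BAL replicate 1 (0.0506) and without hiHep-BAL-Day8 replicate 1 (0.0605) or 2 (0.0666). Against Empty-BAL it was not called (0.41 ± 0.21, adjusted p = 0.155), but without Empty-BAL replicate 1 it was 0.70 (adjusted p = 0.0124). Empty-BAL was not called against No-BAL (0.46 ± 0.21, adjusted p = 0.122), but was 0.75 without Empty-BAL replicate 2 (adjusted p = 0.00689).

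CRY1 (chromosome 5, 13275265 to 13429566), a strong repressor of the activator pair, was called in 3 of 6 comparisons. It was at 5.04 and 4.78 FPKM in hiHep-BAL-Day8, 3.23 in hiHep-BAL-Day4, 2.39 and 2.85 in Empty-BAL, 4.18 and 6.35 in No-BAL, and 6.19, 6.69 and 5.996 in Control. Empty-BAL was the lowest group, and No-BAL overlapped both hiHep-BAL-Day8 and Control. CRY1 fell in Empty-BAL against Control (-1.01 ± 0.17, adjusted p = 0.00209, and 0.197 in the averaged fit). It was lower in Empty-BAL than in No-BAL (-0.77 ± 0.19, adjusted p = 0.0204). That call was lost in the averaged fit (adjusted p = 0.256), with upper-quartile scaling (0.0811) and when only these 4 libraries were fitted. The call was also lost without Empty-BAL replicate 1 and without No-BAL replicate 2. With 1 library left out, CRY1 changed by -1.02 to -0.52 in this comparison. It was higher in hiHep-BAL-Day8 than in Empty-BAL (0.71 ± 0.19, adjusted p = 0.0212), a call lost in the averaged fit (0.401), without Empty-BAL replicate 1 (0.0557) and without hiHep-BAL-Day8 replicate 1 (0.117) or 2 (0.0945), and when only these 4 libraries were fitted (0.0624). The differences of hiHep-BAL-Day8 from No-BAL (-0.06 ± 0.19, and 0.15 with upper-quartile scaling), of hiHep-BAL-Day8 from Control (-0.30 ± 0.17) and of No-BAL from Control (-0.24 ± 0.17) were not called, with adjusted p = 0.809, 0.226 and 0.287. The last was -0.49 without No-BAL replicate 2 (adjusted p = 0.0339) and 0.01 without replicate 1. RefSeq places MTERF2 and TMEM263 within the span of CRY1, so reads of these genes may be mixed.

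CRY2 (chromosome 2, 16587101 to 16620380) followed the falling genes. It was at 10.3 and 10.5 FPKM in hiHep-BAL-Day8, 4.84 in hiHep-BAL-Day4, 15.9 and 4.16 in Empty-BAL, 3.31 and 2.61 in No-BAL, and 24.4, 28.0 and 24.2 in Control. Control was the highest group, No-BAL the lowest, and the Empty-BAL libraries lay on either side of hiHep-BAL-Day8. CRY2 fell in No-BAL against Control (-2.75 ± 0.42, adjusted p = 0.00135, and 0.118 in the averaged fit). It fell in Empty-BAL (-1.501 ± 0.42, adjusted p = 0.0188), where 1 library decided the size. The change was -2.36 without Empty-BAL replicate 1 and -0.64 without replicate 2, and the call was lost without Control replicate 2 (adjusted p = 0.0561) in the averaged fit (0.271) and when only these 5 libraries were fitted (0.0598). The rise in hiHep-BAL-Day8 against No-BAL (1.53 ± 0.46, adjusted p = 0.0282) was lost without any 1 of the 4 libraries (0.0729 to 0.114), without the filter on low values (0.0639) and in the averaged fit (0.277). In hiHep-BAL-Day8 against Empty-BAL the change was 0.29 ± 0.46 (adjusted p = 0.652), and its sign hung on 1 library: 1.14 without Empty-BAL replicate 1 (adjusted p = 0.00213) and -0.57 without replicate 2 (adjusted p = 0.0222). The log2 change of Empty-BAL against No-BAL was 1.25 ± 0.46 (adjusted p = 0.0719, and 0.0452 with upper-quartile scaling), and 2.10 without Empty-BAL replicate 2 (adjusted p = 0.000136). In hiHep-BAL-Day8 against Control it was -1.22 ± 0.42 (adjusted p = 0.0624), and adjusted p = 2.21e-05 when only these 5 libraries were fitted. The FPKM ratio of CRY2 to CRY1, chosen after the values were seen, was 2.05 and 2.19 in hiHep-BAL-Day8, 1.5 in hiHep-BAL-Day4, 6.66 and 1.46 in Empty-BAL, 0.793 and 0.411 in No-BAL, and 3.94 to 4.18 in Control.

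DBP and TEF belong to the PAR bZIP family of output factors. DBP (chromosome 6, 53986955 to 53993044) was at 6.73 and 7.75 FPKM in hiHep-BAL-Day8, 0.562 in hiHep-BAL-Day4, 2.76 and 0.684 in Empty-BAL, 0.873 and 0.380 in No-BAL, and 42.4, 40.2 and 39.2 in Control. The day 8 libraries lay between Control and all other operated livers, whose groups overlapped. On the log2 scale DBP fell in No-BAL against Control (-4.69 ± 0.32, adjusted p = 3.33e-05, and 0.0297 in the averaged fit) and in Empty-BAL (-4.05 ± 0.32, adjusted p = 5.28e-05, and 0.0315). The ratio of mean FPKM to Control was 0.178 in hiHep-BAL-Day8, 0.0424 in Empty-BAL and 0.0154 in No-BAL. In hiHep-BAL-Day8 DBP was lower than in Control (-2.34 ± 0.32, adjusted p = 0.00126), with adjusted p = 0.244 in the averaged fit. It was higher in hiHep-BAL-Day8 than in No-BAL (2.35 ± 0.35, adjusted p = 0.00125) and Empty-BAL (1.71 ± 0.35, adjusted p = 0.0066), with adjusted p = 0.0912 and 0.192 in the averaged fit. The difference from Empty-BAL was 1.13 without Empty-BAL replicate 2, and it was not called when only these 4 libraries were fitted (adjusted p = 0.0721). Empty-BAL was not called against No-BAL (0.65 ± 0.35, adjusted p = 0.177), but was 1.23 without Empty-BAL replicate 2 (adjusted p = 0.0026).

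TEF (chromosome 5, 7119354 to 7135171) was at 15.7 and 14.7 FPKM in hiHep-BAL-Day8, 3.36 in hiHep-BAL-Day4, 2.64 and 3.91 in Empty-BAL, 1.09 and 1.89 in No-BAL, and 27.4, 27.0 and 26.7 in Control. Groups of more than 1 library did not overlap. On the log2 scale TEF fell in No-BAL against Control (-3.51 ± 0.19, adjusted p = 1.29e-05, and 0.031 in the averaged fit) and in Empty-BAL (-2.73 ± 0.19, adjusted p = 3.52e-05, and 0.0398). It was higher in hiHep-BAL-Day8 than in No-BAL (2.72 ± 0.21, adjusted p = 8.22e-05) and Empty-BAL (1.94 ± 0.21, adjusted p = 0.000492), with adjusted p = 0.0506 and 0.108 in the averaged fit. In hiHep-BAL-Day8 against Control it was lower (-0.79 ± 0.19, adjusted p = 0.0169), a call lost without any 1 of the 5 libraries (0.0543 to 0.126), with upper-quartile scaling (0.0638) and in the averaged fit (0.707). In Empty-BAL it was higher than in No-BAL (0.78 ± 0.21, adjusted p = 0.0264), a call lost without No-BAL replicate 1 (0.0814), in the averaged fit (0.268) and when only these 4 libraries were fitted (0.24). Per mean FPKM TEF in hiHep-BAL-Day8 stood at 0.563 of its Control level, against 0.178 for DBP and 0.0751 for PER2.

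**Figure D2:**
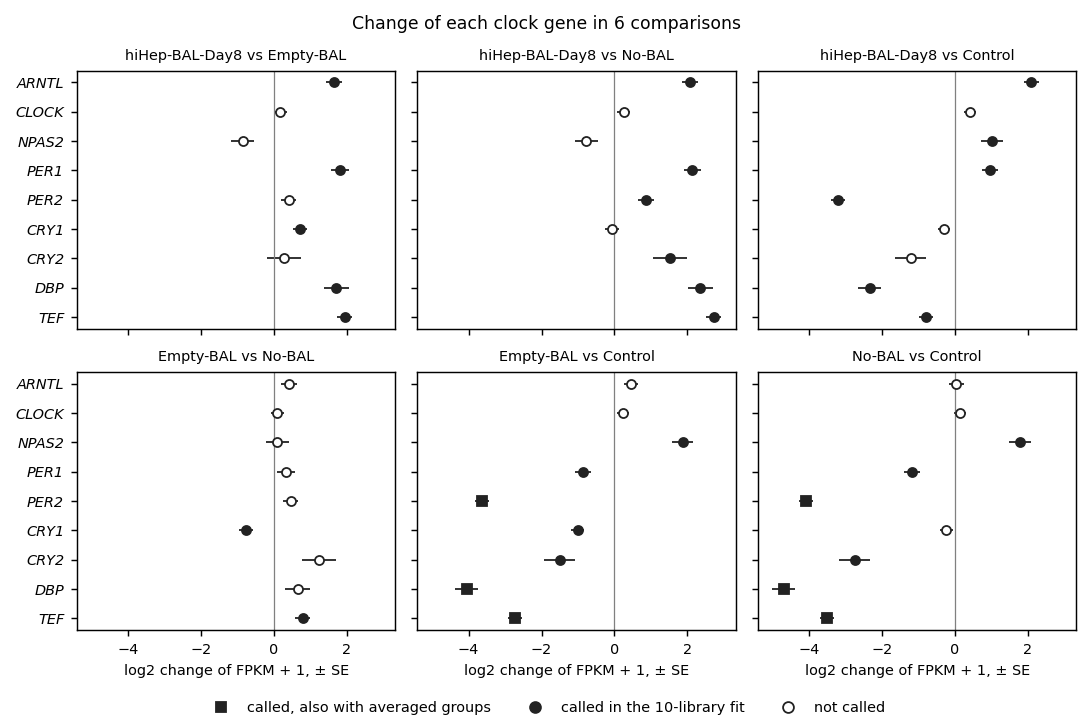
Log2 change of FPKM + 1 (± SE) of the 9 clock genes in 6 comparisons; squares were called in both fits, filled circles in the 10-library fit, open circles in neither. The falls of PER2, DBP and TEF in Empty-BAL and No-BAL against Control are the squares, between -2.73 and -4.69.

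The balance of activators against their targets within a library does not depend on scaling between libraries. The FPKM ratio of ARNTL to DBP was 1.63 and 1.303 in hiHep-BAL-Day8, 9.23 in hiHep-BAL-Day4, 0.689 and 5.38 in Empty-BAL, 1.96 and 4.76 in No-BAL, and 0.0370 to 0.0464 in Control. DBP far exceeded ARNTL in normal liver, and ARNTL exceeded DBP in every operated liver except Empty-BAL replicate 1. The mean log2 FPKM of ARNTL, CLOCK and NPAS2 minus that of PER1, PER2, DBP and TEF was -1.65 and -1.81 in hiHep-BAL-Day8 and 0.32 in hiHep-BAL-Day4. It was -0.70 and 0.05 in Empty-BAL, 0.17 and 0.48 in No-BAL, and -4.90 to -4.86 in Control. On this measure the day 8 libraries were the nearest to Control among operated livers. The ratio of PER1 to PER2, chosen after the values were seen, did not show that order. It was 98.0 and 95.8 in hiHep-BAL-Day8, 87.8 in hiHep-BAL-Day4, 36.1 and 54.2 in Empty-BAL, 96.8 and 45.4 in No-BAL, and 3.71 to 3.81 in Control.

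**Figure D3:**
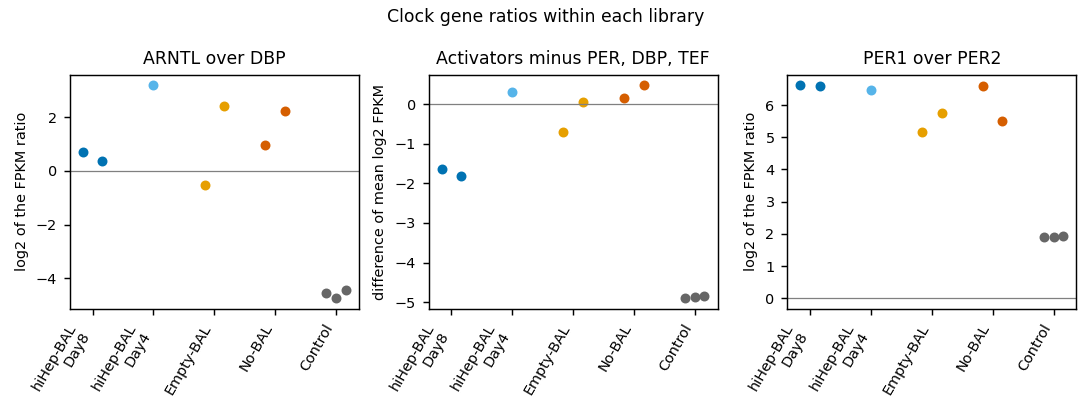
Ratios within each library by group: log2 FPKM ratio of ARNTL to DBP (left), mean log2 FPKM of the activators minus that of PER1, PER2, DBP and TEF (middle) and log2 FPKM ratio of PER1 to PER2 (right); points are libraries. Control stands apart in all panels, and the day 8 libraries lie nearest to it in the middle panel only, at -1.65 and -1.81.

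The single hiHep-BAL-Day4 library has no replicate and was not tested. On the log2(FPKM + 1) scale, 6 of 9 clock genes differed at least 2-fold between it and Control, ARNTL and NPAS2 higher and PER2, CRY2, DBP and TEF lower, where 19.4% of all genes differed as much (8.19% higher, 11.2% lower). Against Empty-BAL 0 of 9 did (29.9% of all genes, 16.5% higher and 13.4% lower), with differences between -0.69 for DBP and 0.75 for ARNTL. Against No-BAL ARNTL alone did, by 1.17 (15.2% of all genes, 7.6% higher and 7.56% lower). In hiHep-BAL-Day8 3 of 9 were at least 2-fold higher than on day 4, DBP by 2.40, TEF by 1.89 and PER1 by 1.5 (23.4% of all genes in either direction, 11.1% higher and 12.3% lower). CRY2, at 0.97, and ARNTL, at 0.90, were just short of 2-fold on that scale, which understates changes. In plain FPKM the mean of hiHep-BAL-Day8 over the day 4 value was 2.15 for CRY2, 2.03 for ARNTL and 2.59 for PER2. The day 4 value over the mean of Empty-BAL was 0.326 for DBP and 0.481 for CRY2, and over the mean of No-BAL 2.95 for ARNTL and 2.26 for TEF. All other ratios of clock genes on day 4 to these means lay within 2-fold.

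Of 12 further clock regulators, 10 passed the filter on low values; RORB and ARNTL2 did not. In No-BAL 9 of 10 fell against Control (median -1.89), and in Empty-BAL 7 of 10 (median -2.31), where 24.2% and 29.3% of all genes fell and their medians were 0.04 and -0.03. The repressor BHLHE40 was at 7.57 and 9.28 FPKM in hiHep-BAL-Day8, 42.6 in hiHep-BAL-Day4, 40.5 and 6.92 in Empty-BAL, 30.4 and 14.3 in No-BAL, and 253, 260.5 and 254 in Control. It fell in No-BAL (log2 change -3.55 ± 0.62, adjusted p = 0.00248, and 0.136 in the averaged fit) and on day 8 (-4.77 ± 0.62, adjusted p = 0.00108, and 0.218). NFIL3, which competes with DBP and TEF for D-box elements, fell in No-BAL to 27.9 and 12.6 FPKM, against 130.1 to 137 FPKM in Control (-2.76 ± 0.31, adjusted p = 0.000291, and 0.0792 in the averaged fit). Only RORA and TIMELESS were called in the averaged fit, RORA in No-BAL (adjusted p = 0.0474) and Empty-BAL (0.0278) and TIMELESS in Empty-BAL (0.0404) against Control.

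In hiHep-BAL-Day8 6 of these 10 genes were higher than in Empty-BAL and 8 than in No-BAL, with none lower (medians 1.25 and 1.27), where 22.6% and 22.5% of all genes were higher and their medians were 0.05 and -0.03. None of these calls remained in the averaged fit. The receptors of the ARNTL loop did not move as 1 group. The repressor NR1D2 was at 9.25 and 9.23 FPKM in hiHep-BAL-Day8, 4.36 in hiHep-BAL-Day4, 1.33 and 1.73 in Empty-BAL, 0.838 and 1.73 in No-BAL, and 8.31, 9.10 and 8.41 in Control. Day 8 lay just above Control, and the failing livers lay far below both. The difference of hiHep-BAL-Day8 from Empty-BAL was 2.02 ± 0.20 (adjusted p = 0.000369, and 0.0957 in the averaged fit). NR1D1, its relative, was at 15.97 and 15.2 FPKM in hiHep-BAL-Day8, 13.3 in hiHep-BAL-Day4, 16.5 and 5.76 in Empty-BAL, 5.18 and 3.28 in No-BAL, and 9.25, 9.66 and 8.36 in Control. NR1D1 on day 8 was not called against Control (0.72 ± 0.37, adjusted p = 0.173). Thus ARNTL and the repressors NR1D1 and NR1D2 all had their highest or nearly highest levels in the day 8 libraries. RORA, an activator of ARNTL, was at 3.46 and 3.03 FPKM on day 8, against 10.6, 9.29 and 10.4 FPKM in Control, and was lower on day 8 (-1.38 ± 0.14, adjusted p = 0.000349, and 0.244 in the averaged fit).

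**Figure D4:**
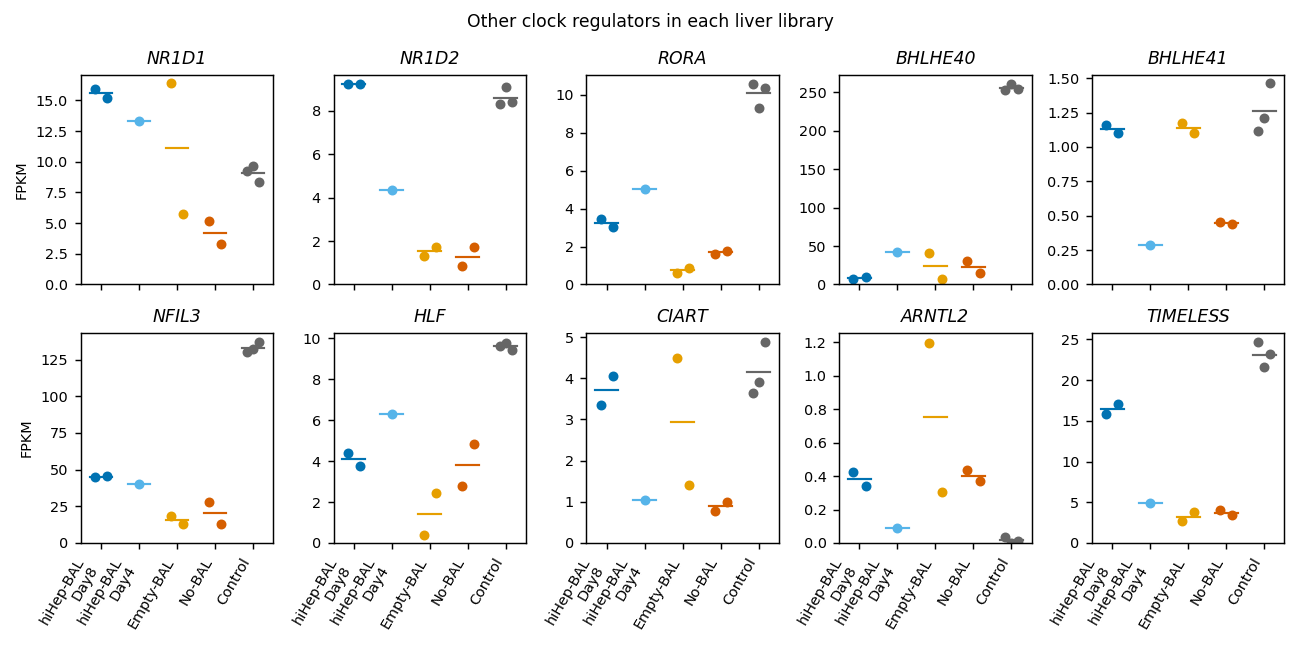
FPKM of 10 further clock regulators in each library by group; points are libraries and bars are group means. NR1D2 on day 8 lies just above Control, and BHLHE40, NFIL3 and RORA lie below it.

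Kinases, ubiquitin ligases and cofactors that set the stability and activity of clock proteins moved in both directions. Of 14 measured, 5 rose and 1 fell in No-BAL against Control (median 0.20), and 4 were higher and 1 lower in hiHep-BAL-Day8 than in Empty-BAL (median 0.19). Of all genes 25.2% rose and 24.2% fell in No-BAL against Control, and 22.6% were higher and 17.6% lower in hiHep-BAL-Day8 than in Empty-BAL. None of these calls of the list remained in the averaged fit. CSNK1D, a kinase that marks PER proteins for breakdown, was at 78.9 and 88.4 FPKM in No-BAL, against 41.8, 42.5 and 36.4 FPKM in Control (log2 change 1.04 ± 0.17, adjusted p = 0.00162, and 0.27 in the averaged fit). USP2, a ubiquitin protease, fell to 2.78 and 5.98 FPKM in No-BAL, against 32.5, 32.6 and 30.4 FPKM in Control (-2.67 ± 0.30, adjusted p = 0.000285, and 0.074). SIRT1, a deacetylase that acts on clock proteins, was at 7.50 and 7.29 FPKM in hiHep-BAL-Day8, against 1.60 and 3.04 FPKM in Empty-BAL. SIRT1 was higher (1.37 ± 0.23, adjusted p = 0.00303, and 0.186) and the kinase GSK3B lower (-1.08 ± 0.19, adjusted p = 0.00367, and 0.234) in this comparison. USP2 was higher there too, and the kinase genes PRKAA2 and CSNK1E rose in No-BAL against Control, with changes of 1.42, 1.19 and 1.05.

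Genes known from mouse liver as clock outputs fell for 6 of 12 in No-BAL (median -1.29) and 11 of 12 in Empty-BAL (median -2.68) against Control, with none higher, where 24.2% and 29.3% of all genes fell. The averaged fit kept 3 and 4 of these calls. CYP7A1, the rate-limiting enzyme of bile acid synthesis, was at 5.78 and 5.76 FPKM in hiHep-BAL-Day8, 0.458 in hiHep-BAL-Day4, 1.03 and 0.562 in Empty-BAL, 0.239 and 0.259 in No-BAL, and 33.7, 32.3 and 34.1 in Control. As with DBP, day 8 lay between Control and the other operated livers. On the log2 scale CYP7A1 fell in No-BAL (-4.78 ± 0.15, adjusted p = 2.19e-06, and 0.0183 in the averaged fit). PPARA, a nuclear receptor of fatty acid breakdown, was at 0.499 and 0.312 FPKM in hiHep-BAL-Day8, 0.473 in hiHep-BAL-Day4, 0.0883 and 0.255 in Empty-BAL, 0.798 and 0.971 in No-BAL, and 19.3 to 20.04 in Control. It fell in No-BAL (-3.46 ± 0.13, adjusted p = 3.43e-06, and 0.0227), and day 8 was lower than No-BAL (-0.42 ± 0.15, adjusted p = 0.0438, and 0.382). GYS2, the liver glycogen synthase, was at 202 and 200.1 FPKM in hiHep-BAL-Day8, 34.2 in hiHep-BAL-Day4, 4.09 and 2.24 in Empty-BAL, 11.2 and 13.8 in No-BAL, and 106, 111 and 105 in Control. GYS2 on day 8 lay above Control as PER1 and ARNTL did (0.90 ± 0.21, adjusted p = 0.0155, and 0.699), and its difference from Empty-BAL (5.64 ± 0.24, adjusted p = 2.36e-05) remained in the averaged fit (0.0389). In that comparison 7 of 12 outputs were higher and 1 lower (median 1.43), among them G6PC1 and PCK1 of glucose synthesis (5.27 and 3.46) and ALAS1 of heme synthesis (2.39), where 22.6% of all genes were higher and 17.6% lower. Only the call of GYS2 remained in the averaged fit (adjusted p = 0.154 for G6PC1, 0.264 for PCK1 and 0.321 for ALAS1). ALAS1 fell in No-BAL against Control (-2.47 ± 0.67, adjusted p = 0.0171, and 0.276).

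PER1 responds to glucocorticoids, and 7 of 10 genes known to be induced by them were higher in hiHep-BAL-Day8 than in Empty-BAL, with none lower (median 1.55), where 22.6% of all genes were higher. The largest rises were those of TAT, which breaks down tyrosine (7.38 ± 0.66, adjusted p = 0.000229, and 0.0638), ERRFI1 (4.81), KLF9 (1.94) and ZBTB16 (1.84). Against No-BAL 8 were higher and 1 lower (median 1.38), where 22.5% of all genes were higher, and none of these calls remained in the averaged fit. FKBP5, a cochaperone of the glucocorticoid receptor, was at 112 and 110.2 FPKM in hiHep-BAL-Day8, 33.9 in hiHep-BAL-Day4, 29.5 and 46.6 in Empty-BAL, 38.0 and 40.7 in No-BAL, and 10.3, 10.5 and 9.25 in Control. It was above Control in all operated livers and highest on day 8 (3.35 ± 0.21 against Control, adjusted p = 4.36e-05, and 0.121 in the averaged fit). The list as a whole did not rise against Control. In hiHep-BAL-Day8 3 of 10 were higher and none lower (median -0.07), where 15.1% of all genes were higher and 17.1% lower. In No-BAL 2 rose and 6 fell (median -1.81), where 25.2% of all genes rose and 24.2% fell. In Empty-BAL 2 rose and 6 fell (median -1.86), where 24.4% of all genes rose and 29.3% fell. The medians of all genes were -0.02, 0.04 and -0.03 in these comparisons. The averaged fit called 0, 0 and 1 of the list. ERRFI1 fell to 57.1 and 24.5 FPKM in No-BAL, against 619.8, 569 and 599.9 FPKM in Control (-3.95 ± 0.53, adjusted p = 0.000698, and 0.0895 in the averaged fit). CDKN1C and KLF9 fell there too (-2.50 and -1.96).

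Immediate early genes, which respond within minutes to stress or handling and can induce PER1 and PER2, were mostly lower in operated livers. Of 12, against Control, 11 fell in No-BAL (median -2.62), 9 fell and 1 rose in Empty-BAL (median -1.98) and 12 were lower in hiHep-BAL-Day8 (median -3.59). Of all genes 24.2%, 29.3% and 17.1% were lower in these comparisons, and the averaged fit kept 5, 2 and 2 of the calls. FOSB was at 0.435 and 0.533 FPKM in hiHep-BAL-Day8, 13.7 in hiHep-BAL-Day4, 6.65 and 4.32 in Empty-BAL, 1.66 and 1.74 in No-BAL, and 336 to 338 in Control. On the log2 scale it fell in No-BAL (-6.97 ± 0.18, adjusted p = 1.58e-06, and 0.0155 in the averaged fit). FOS stood at 5.10 and 5.06 FPKM in hiHep-BAL-Day8, 66.5 in hiHep-BAL-Day4, 33.0 and 59.6 in Empty-BAL, 36.4 and 16.7 in No-BAL, and 438 to 458 in Control. ATF3 and JUNB fell in No-BAL as well (-3.92 and -3.12). Against Empty-BAL 9 of 12 were lower in hiHep-BAL-Day8 (median -1.85), with FOSL1, FOS, NR4A1 and IER3 between -3.67 and -2.38, where 17.6% of all genes were lower and none of the list's calls remained in the averaged fit. The list had no common lowest group: FOS and FOSB were lowest on day 8, NR4A1 on day 4 and EGR1 in No-BAL by group mean. The part of either list in the clock gene results was not tested.

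**Figure D5:**
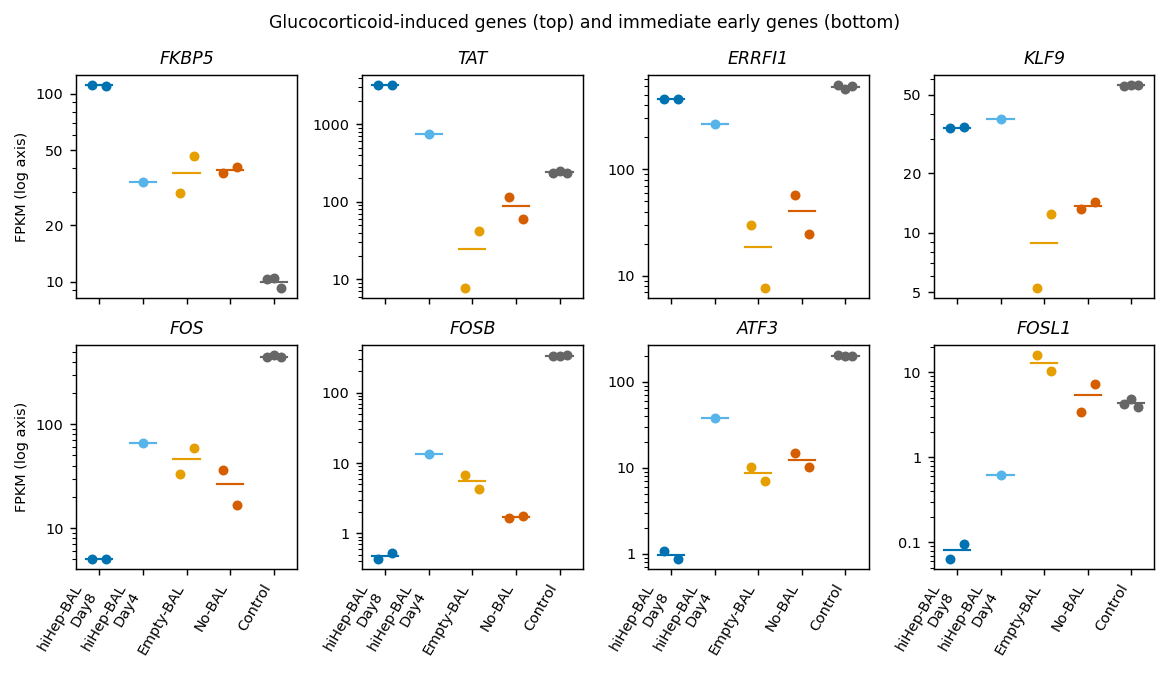
FPKM (log axis) of 4 glucocorticoid-induced genes (top) and 4 immediate early genes (bottom) in each library by group; points are libraries and bars are group means. FKBP5 and TAT are highest on day 8, FOS, FOSB and ATF3 in Control.

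Likeness was sought among 4503 named genes averaging 10 FPKM or more. Likeness to a clock gene was measured as the root mean square difference of centred log2(FPKM + 1) profiles over the 10 libraries. The genes most like DBP were the kinase gene RPS6KA2 (0.23) and CYP7A1 (0.24), followed by GATM (0.51), TTC36 (0.52) and SLC5A9 (0.56), where the median gene was at 2.06. RPS6KA2, CYP7A1 and TTC36 were above 10 FPKM in the Control libraries only. SLC5A9 was above it only there (28.18 to 33.07 FPKM) and on day 8 (14.78 and 15.42). RPS6KA2, CYP7A1, TTC36 and SLC5A9 became candidates through the group where DBP is also highest. GATM was highest in Control too, but was also above 10 FPKM on day 8 (29.68 and 28.58), on day 4 (15.72) and in Empty-BAL replicate 1 (10.59). The likeness of each of these genes is a description. RPS6KA2 was at 7.79 and 7.98 FPKM in hiHep-BAL-Day8, 1.57 in hiHep-BAL-Day4, 4.15 and 1.07 in Empty-BAL, 0.675 and 0.928 in No-BAL, and 49.6, 52.3 and 50.4 in Control. Like DBP, it was higher in Empty-BAL replicate 1 than in replicate 2. The genes most like ARNTL were RSRP1 (0.26), CLK1 (0.35), TXNIP (0.38), SMARCD2 (0.38) and WSB1 (0.39), where the median gene was at 1.11. SMARCD2 was above 10 FPKM only on day 8 (29.99 and 29.51) and in Empty-BAL replicate 2 (13.37). It became a candidate through the group where ARNTL is also highest, so its likeness is a description too. CLK1, a kinase of splicing factors, was at 128 and 127 FPKM in hiHep-BAL-Day8, 37.2 in hiHep-BAL-Day4, 19.1 and 43.5 in Empty-BAL, 22.3 and 17.6 in No-BAL, and 29.7 to 30.5 in Control. Unlike ARNTL, CLK1 on day 4 lay below Empty-BAL replicate 2.

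Markers of other cells moved with the groups too. Neutrophil markers, 4 of 5 measured, summed to 0.768 and 1.02 FPKM in hiHep-BAL-Day8, 66.0 in hiHep-BAL-Day4, 100.5 to 626 in Empty-BAL, 26.3 to 233 in No-BAL, and 0.361 to 1.31 in Control, where 1 was listed at 0 throughout. Macrophage markers (6 of 6) summed to 249.8 and 252 FPKM in hiHep-BAL-Day8, 157 in hiHep-BAL-Day4, 583 to 716 in Empty-BAL, 82.9 to 85.9 in No-BAL, and 240.7 to 269.5 in Control. Genes of dividing cells (4 of 5) summed to 1.98 and 2.62 FPKM in hiHep-BAL-Day8, 86.7 in hiHep-BAL-Day4, 90.3 to 95.0 in Empty-BAL, 165 to 223 in No-BAL, and 2.20 to 2.88 in Control. T and NK cell markers (5 of 5) summed to 18.4 to 18.7 FPKM in hiHep-BAL-Day8, 14.0 in hiHep-BAL-Day4, 39.1 to 66.2 in Empty-BAL, 6.59 to 8.65 in No-BAL, and 15.7 to 18.8 in Control. Cholangiocyte markers (3 of 4) were highest in Empty-BAL (95.5 to 118 FPKM, with 11.7 to 28.3 in all other libraries). B cell markers (4 of 4) ran from 21.4 to 55.2 FPKM over all libraries, with 1 listed at 0 in hiHep-BAL-Day4 and in No-BAL. Endothelial markers (4 of 5) ran from 30.7 to 114 FPKM and stellate cell and fibroblast markers (5 of 5) from 138 to 878. The part of these cells in the clock gene results was not tested.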

How the data were processed

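The authors deposited 1 table of FPKM with 10 library columns; the headers name no unit, and FPKM was taken from a column name of Cufflinks and from the values. Per the submitters' processing notes HISAT2, Cufflinks and HTSeq were used with Sscrofa11.1 and mm10, without roles, of which mm10 was left aside. Summed FPKM was 439925 to 829970 per library. Among 3273 genes with low values, 12.4% shared the commonest ratio between a pair of Control libraries within 1%. No share for values without steps was set beside it, so it cannot decide whether low values step in whole fragments. Whole fragments were not recovered, so depth is unknown and no counting interval is given. Values were tested as log2(FPKM + 1), a scale that understates changes of low genes, for the 12180 genes that reached 1 FPKM in 2 or more libraries. One limma model (3.58.1, R 4.3.3, mean-variance trend) held all 10 libraries and 5 group means, leaving 5 residual degrees of freedom, and the prior added 2.73; tests were two-sided with Benjamini-Hochberg adjustment over all genes. The method was tested on simulated data. All 9 clock genes and every list member that passed the filter were counted; up to 4 called genes with the largest change per list were named, in hiHep-BAL-Day8 against Empty-BAL and No-BAL against Control, and others named were chosen after their values were seen. Clock genes and lists were chosen with earlier results of these data known. Strandedness of the libraries was not given in the sources used here. Coordinates are RefSeq's, matched by symbol. No sequence is shown. Some genes of the lists are counted but not reported here by name. Tables and plots were made with numpy 2.4.6, matplotlib 3.10.9 and pandas 2.3.3 under Python 3.11.15.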

Additional observations from a re-analysis of the deposited data

How the results depend on the processing

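Over 54 log2 changes (9 genes, 6 comparisons) and their alternatives, 606 of 696 values kept their direction and side of the threshold, 63 lost a call, 17 gained one and 10 changed sign. With hiHep-BAL-Day8 and Control libraries each averaged to 1 sample, limma called 0 clock genes in hiHep-BAL-Day8 against Empty-BAL, No-BAL and Control (4, 4 and 3 at an unadjusted p under 0.05), 0 in Empty-BAL against No-BAL (0 unadjusted), and 3 in Empty-BAL and in No-BAL against Control. Among all genes it called, for the comparisons in that order, 33, 297, 17, 0, 689 and 413 (2489, 2984, 1463, 2653, 3295 and 2827 unadjusted), where the fit of all 10 libraries called 4895, 5764, 3923, 4146, 6540 and 6021; fewer samples enter that fit. With only the libraries of the 2 groups, 3 clock genes were called in hiHep-BAL-Day8 against Empty-BAL and 0 in Empty-BAL against No-BAL (0 unadjusted), with 2353 and 0 (2659 unadjusted) of all genes, and 8384 of all genes were called in hiHep-BAL-Day8 against Control. Leaving out 1 library gave 4 to 7 clock genes in hiHep-BAL-Day8 against Empty-BAL, 4 to 5 against No-BAL and 3 to 4 against Control, 1 to 6 in Empty-BAL against No-BAL, and 6 to 8 in Empty-BAL and 6 to 7 in No-BAL against Control. For the comparisons in that order, all-gene counts then ranged from 2423 to 6798, 3418 to 5393, 1723 to 2637, 3081 to 6679, 5181 to 7652 and 4629 to 5534. A group left with 1 library was assumed to vary like the others. Signs changed for ARNTL in No-BAL against Control (-0.023 to 0.068, and -0.00090 with median-ratio scaling), CLOCK there (-0.025 to 0.31) and in Empty-BAL against No-BAL (-0.077 to 0.26), and NPAS2 in the last (-0.48 to 0.67). They also changed for CRY1 in No-BAL against Control (-0.49 to 0.013) and in hiHep-BAL-Day8 against No-BAL (-0.32 to 0.19, and 0.15 with upper-quartile scaling), and for CRY2 in hiHep-BAL-Day8 against Empty-BAL (-0.57 to 1.14). Where no cause is given, the cause was not tested. Same-numbered replicates were not treated as pairs in the main fit. The correlation of their deviations was -0.049 to 0.01 with Control and 0.137 between Empty-BAL and No-BAL. With 2 libraries each in Empty-BAL and No-BAL, deviations within a group mirror each other, so these correlations cannot decide whether replicates were paired. A replicate block left 2 clock genes called in Empty-BAL against No-BAL, 7 in Empty-BAL and 6 in No-BAL against Control, and changed no call; the day 8 titles share no 2 numbers, so no block was fitted there.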
